A study of Mus musculus with 4 samples.

Results

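The 8 genes described here, Bdnf, Ntrk2, Nrn1, Vgf, Scg2, Nptx1, Nptx2 and Nptxr, were chosen by symbol from the 32285 genes counted in each section, as genes of secreted or surface proteins linked to neuronal activity and synaptic plasticity. The rule lists symbols and sets no threshold on a value, and all 8 symbols were found. They were counted by Visium, an assay in which a tissue section lies on a grid of barcoded spots that capture polyadenylated RNA, and each captured molecule counts once as a unique molecular identifier (UMI). The 4 coronal sections through the dorsal hippocampus came from 4 male ArcCreERT2::eYFPflx mice on a C57BL/6 background, aged 3 to 4 months, with 1 section a mouse. Both mice of the trained condition (trained 1 and trained 2) had been trained in active place avoidance, in which a rotating arena holds a zone that gives a foot shock, and both untrained mice (untrained 1 and untrained 2) had been placed in the same arena with the shock off. All 4 mice carried both transgenes, received 4-hydroxytamoxifen before the memory retention test, were then housed singly, and were taken 3 days after that test. The Arc promoter drives the CreERT2 recombinase in this line, so that eYFP marks cells that were active around the tamoxifen injection. The tag was not used here.

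The genes belong to 3 systems by which neurons act on their synapses from outside. Brain-derived neurotrophic factor, encoded by Bdnf, is a secreted growth factor that binds the receptor tyrosine kinase TrkB, encoded by Ntrk2, and is needed for lasting synaptic potentiation. A shortened TrkB without the kinase is abundant in astrocytes. Neuritin, encoded by Nrn1, is a small protein tethered to the membrane that promotes growth of dendrites and synapses. Vgf and Scg2 encode granin-like proteins, which are stored in dense-core vesicles and cut into secreted peptides. Nptx1 and Nptx2 encode secreted neuronal pentraxins that gather AMPA-type glutamate receptors at synapses, and Nptxr encodes a membrane-bound pentraxin that assembles with them. The reads lie at the 3' ends of transcripts, so that each value sums the isoforms of a gene. Levels were not compared between genes.

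The sections held 2865, 3055, 2359 and 2661 spots over tissue for trained 1, trained 2, untrained 1 and untrained 2, and 7119995, 10330015, 3560294 and 6581748 UMIs. Together the sections gave between 580 UMIs (Bdnf) and 9440 UMIs (Nptxr) for a member. Levels are given in CPM, the UMIs of a gene per 1000000 UMIs of the same spots, so that 3 counts, the most that a count of 0 allows, correspond to 0.290 to 0.843 CPM in a whole section. Such limits, and the intervals on shares of spots given below, cover counting error only. Each spot, which can hold several cells, was assigned to 1 of 14 regions by marker genes that are not among the 8, and the region is named after that marker list. The hippocampal regions CA1, CA3 and dentate gyrus (DG) held 239, 218, 215 and 219 spots together. Unassigned spots made up 16.3% and 16.3% of the trained sections and 21.8% and 20.7% of the untrained ones. In these no list led, or a CA1, CA3, DG or medial habenula list led away from the largest contiguous block of such spots. In untrained 1 the cortex above the hippocampus was missing. The layer 5 cortex list was higher in medial habenula spots of trained 1 (519 CPM) than in its layer 5 cortex spots (449), the ependyma list higher in choroid plexus spots of untrained 1 (442) than in its ependyma spots (195), and the meninges list higher in choroid plexus spots of trained 1 and untrained 2 than in their meninges spots. In their own regions the hypothalamus list stood at 1592 and 13183 CPM in the trained sections and 6069 and 5093 in the untrained ones, and the choroid plexus list at 167169 and 17973 against 81723 and 141923, and the part of this in the values of these regions was not tested.

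**Figure D1:**
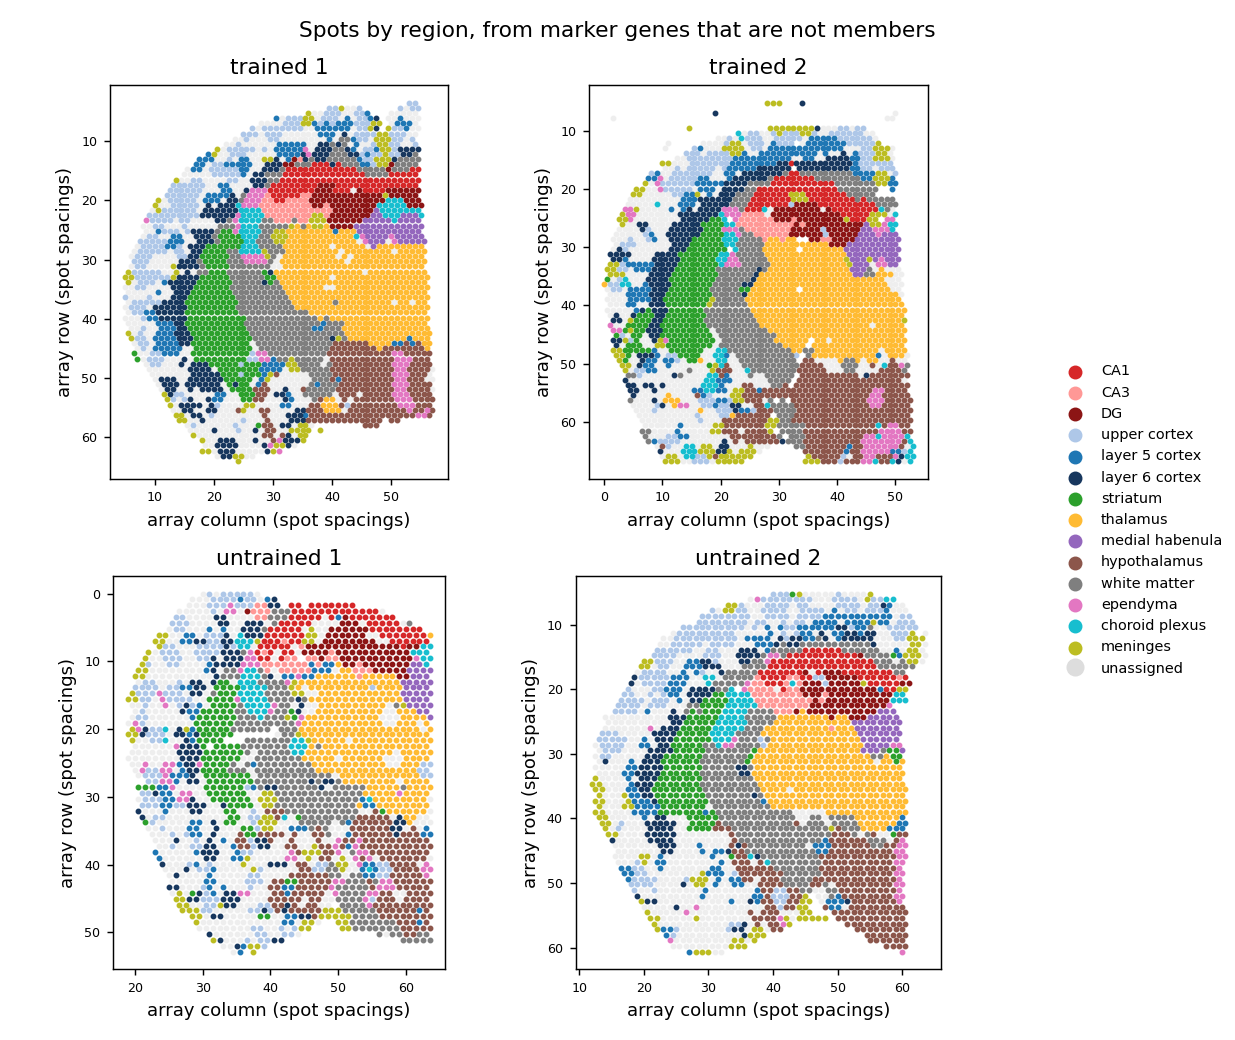
Each dot is 1 spot of a section, placed by array row and column in spot spacings and coloured by the region whose marker list led. CA1, CA3 and DG form 1 hippocampal block in each section because only the largest contiguous block of their spots was kept. Cortex lies around it except above the hippocampus of untrained 1, and spots in pale grey are unassigned.

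The loci are given on GRCm38 with the GENCODE annotation. Bdnf lies at chr2:109674700-109727007 on the plus strand with 11 annotated transcripts, and Ntrk2 at chr13:58806569-59133970 on the plus strand with 10. Nrn1 lies at chr13:36725361-36735131 on the minus strand, Vgf at chr5:137026392-137033351 on the plus strand and Scg2 at chr1:79434669-79440120 on the minus strand. The pentraxin genes lie apart, Nptx1 at chr11:119538719-119547753 on the minus strand, Nptx2 at chr5:144545902-144557478 on the plus strand and Nptxr at chr15:79786351-79804766 on the minus strand. Nptxr overlaps Npcd on the same strand and Ntrk2 overlaps C630044B11Rik on the same strand, and neither of these is in the gene list of the counts. Bdnf, Ntrk2 and Nrn1 overlap genes annotated on the opposite strand, and reads of the overlapping genes cannot be told apart if strand was not used.

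All 8 genes are named activity-regulated, and the element through which the factor CREB is known to act on such genes was looked for in the promoter windows of RefSeq (250 bases before to 50 after a start, GRCm38.p6). Windows were listed for 3 of the 8 genes, Bdnf with 7 starts, Ntrk2 with 1 and Scg2 with 1. The full element TGACGTCA, which reads the same on both strands, stood in the Scg2 window and in 1.79% of all 32851 windows. The variant CACGTCA, searched on both strands and sharing its last 6 letters with the full element, stood in 1 of the 7 Bdnf windows and in 2.01% of all windows. These 2 stretches are shown because they are the matches found, with the motif in capitals. The Bdnf stretch is chr2:109692186-109692435 on the plus strand, the 250 bases before the start, and touches no annotated exon. The Scg2 stretch is chr1:79440076-79440105 on the minus strand and overlaps an exon of 1 annotated Scg2 transcript.
Bdnf: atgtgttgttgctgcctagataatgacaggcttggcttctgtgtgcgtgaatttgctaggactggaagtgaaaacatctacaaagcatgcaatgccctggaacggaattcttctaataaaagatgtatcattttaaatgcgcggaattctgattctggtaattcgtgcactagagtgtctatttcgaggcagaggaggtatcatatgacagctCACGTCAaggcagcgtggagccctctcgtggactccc
Scg2: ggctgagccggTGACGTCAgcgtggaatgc
The capitals begin 37 bases before the Bdnf start and 68 bases before the Scg2 start. The counts do not separate transcripts by start, so no level below belongs to 1 promoter.

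The first comparison asked where in the section each gene was expressed. Each gene was fitted in every region against the mean of the other regions by edgeR's quasi-likelihood test on summed counts, with the section as a block and Benjamini-Hochberg adjustment over all genes tested. Of the 112 pairs of a member and a region, 48 were called at an adjusted p under 0.05, 27 above the other regions and 21 below. Over all genes tested, 9.57% of gene and region pairs were called above and 6.89% below. Of the 48 calls, 28 held under all 10 alternatives tried and 20 were lost under at least 1, and the losses that came with a left out section are given with each gene. Regions of a section share a mouse and a library. A spot mean does not tell fewer cells of a type from less RNA per cell.

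Bdnf was highest in the hippocampus. In CA3 it stood at 80.8 and 53.7 CPM in the trained sections and 31.7 and 87.4 in the untrained ones, and the trained values lay between the untrained ones, of which the lower rests on 2 UMIs. The log2 difference of CA3 from the mean of the other regions was 2.00 (SE 0.30, edgeR adjusted p = 1.04e-07). CA1 (1.33), DG (1.11), layer 5 cortex (0.85) and layer 6 cortex (0.79) were also above, and white matter (-1.27) and striatum (-1.60) were below. Without trained 1 the calls in DG (0.99), layer 5 cortex (0.78), layer 6 cortex (0.83) and white matter (-1.06) were lost, without trained 2 those in layer 6 cortex (0.75) and striatum (-0.97), and without untrained 1 that in layer 5 cortex (0.69). The call in layer 5 cortex was also lost without averaging over neighbouring spots (0.74) and with a higher minimum score for a region (0.99). No step between neighbours in the order CA3, CA1, DG, layer 5 cortex, layer 6 cortex and on downwards passed the test. Bdnf was at 0 UMIs in choroid plexus of both untrained sections, in medial habenula of untrained 1 and in meninges of untrained 1. These counts allow up to 53.0 and 18.5, 79.6 and 33.6 CPM, so its absence there was not shown at this depth.

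Ntrk2, the receptor gene for BDNF, was the most even of the 8. Its region means ran from 241 CPM in CA1 to 443 in ependyma, a ratio of 1.84. The next lowest ratio was 3.39, for Vgf. The ependyma, the ciliated lining of the ventricles, had 452 and 555 CPM in the trained sections and 352 and 413 in the untrained ones, and was its only region called (log2 0.70, SE 0.14, edgeR adjusted p = 1.57e-04). Without trained 2 this call was lost (0.51, edgeR adjusted p = 0.0582). No step between neighbours in its order passed the test. In CA3, where Bdnf was highest, Ntrk2 stood at 237, 241, 190 and 320 CPM, with the conditions overlapping.

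Nrn1 was highest in CA3, with 479 and 376 CPM in the trained sections and 286 and 415 in the untrained ones. Its log2 difference from the other regions was 1.36 there (SE 0.14, edgeR adjusted p = 1.39e-13), 1.18 in DG and 1.12 in medial habenula, a small nucleus beside the ventricle that sends its axons to the midbrain. No step among the 3 leading regions passed the test, and the step from medial habenula down to thalamus passed the test (edgeR adjusted p = 0.0383). Thalamus (0.63), upper cortex (0.62) and layer 5 cortex (0.45) were also above, whereas hypothalamus (-1.23), white matter (-1.10), choroid plexus (-0.84) and striatum (-1.66) were below. Of these, layer 5 cortex lost its call without trained 2 (0.39) and choroid plexus without untrained 2 (-0.75). Without averaging over neighbouring spots, upper cortex (0.30), layer 5 cortex (0.20) and choroid plexus (-0.56) lost theirs, as did layer 5 cortex with the higher minimum score (0.46).

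The granin-like genes led in the hypothalamus, the seat of neurons that release peptide hormones. Scg2 had 688 and 958 CPM there in the trained sections and 556 and 661 in the untrained ones, against 344 in ependyma, the next region. Its log2 difference from the other regions was 1.69 (SE 0.09, edgeR adjusted p = 2.09e-31), and the step to the next region also passed the test (log2 1.07, edgeR adjusted p = 9.56e-06). No other region was above the rest for Scg2, and CA3 was below (-1.06), at 150, 107, 190 and 102 CPM.

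Vgf spread more widely. It had 286 and 224 CPM in hypothalamus of the trained sections and 209 and 307 in that of the untrained ones (log2 0.86 against the other regions, SE 0.09, edgeR adjusted p = 3.4e-13). Layer 5 cortex (0.72), which holds the large projection neurons of the cortex, and striatum (0.37) were above the rest too. DG (-1.12), medial habenula (-1.07) and choroid plexus (-0.86) were below. Striatum (0.30) and choroid plexus (-0.65) lost their calls without trained 1, and choroid plexus also without untrained 2 (-0.81). Striatum lost its call without the section block too (0.36). Without averaging of the marker scores over neighbouring spots, the value in choroid plexus turned to 0.21 (edgeR adjusted p = 0.597). In DG, Vgf stood at 74.7, 40.5, 135 and 74.1 CPM, and the step from white matter down to DG was the only one in its order that passed the test (edgeR adjusted p = 0.0017).

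Nptx1 and Nptxr shared their leading region with Bdnf and Nrn1. Nptx1 had 710 and 590 CPM in CA3 of the trained sections and 651 and 626 in that of the untrained ones, a log2 difference of 2.30 from the other regions (SE 0.12, edgeR adjusted p = 1.31e-30). DG followed at 1.75 and layer 6 cortex at 1.10, and each step in the order from CA3 over DG and layer 6 cortex to CA1 passed the test. The lowest region was thalamus, with 28.1, 23.3, 60.1 and 35.7 CPM (-2.36), below striatum (-1.23), which was its neighbour in the order. White matter (-0.98) and hypothalamus (-0.58) were below as well.

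Nptxr had 975 and 845 CPM in CA3 of the trained sections and 904 and 997 in that of the untrained ones (log2 1.76, SE 0.11, edgeR adjusted p = 5.89e-25). The step down to upper cortex was 0.87 on the log2 scale and passed the test (edgeR adjusted p = 2.36e-07). Upper cortex (0.82), meninges (0.62), layer 5 cortex (0.46), DG (0.38) and layer 6 cortex (0.30) were above the rest. The call in layer 6 cortex held in only 4 of 10 alternatives, and was lost with DESeq2 (0.27, adjusted p = 0.196), with the higher minimum score (0.13), without trained 1 (0.20) and without untrained 2 (0.16). Those in DG and meninges held in 7 of 10 each, and were lost without trained 1 in DG (0.21) and without untrained 2 in meninges (0.33). White matter was lowest (-1.33), and choroid plexus (-0.91), thalamus (-0.70), hypothalamus (-0.65) and striatum (-0.55) were also below. Without averaging over neighbouring spots, the calls in choroid plexus (-0.20), layer 5 cortex (0.23), meninges (0.23), DG (0.33) and layer 6 cortex (0.27) were lost. Without the section block those in striatum (-0.52), layer 5 cortex (0.53), meninges (0.63), DG (0.40) and layer 6 cortex (0.33) were lost, with edgeR adjusted p from 0.0751 to 0.317.

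Nptx2 had a place of its own. Medial habenula held 153 and 201 CPM in the trained sections and 159 and 136 in the untrained ones, with a log2 difference of 2.08 from the other regions (SE 0.27, edgeR adjusted p = 9.6e-10). The step down to CA1, the next region, was 1.37 (edgeR adjusted p = 7.21e-04). Thalamus was also above (0.55), and striatum (-0.84) and white matter (-0.80) were below. These 3 calls were lost with DESeq2 (adjusted p = 0.260, 0.153 and 0.184) and without trained 2 (0.38, -0.43 and -0.37), and that in white matter also without untrained 1 (-0.83) or untrained 2 (-0.62). Without the section block those in striatum (-0.83) and white matter (-0.79) were lost. In CA3, where the other pentraxin genes led, Nptx2 had 40.4, 8.94, 47.6 and 7.28 CPM from 13 UMIs in all, and was not called (-0.94, SE 0.47, edgeR adjusted p = 0.214).

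**Figure D2:**
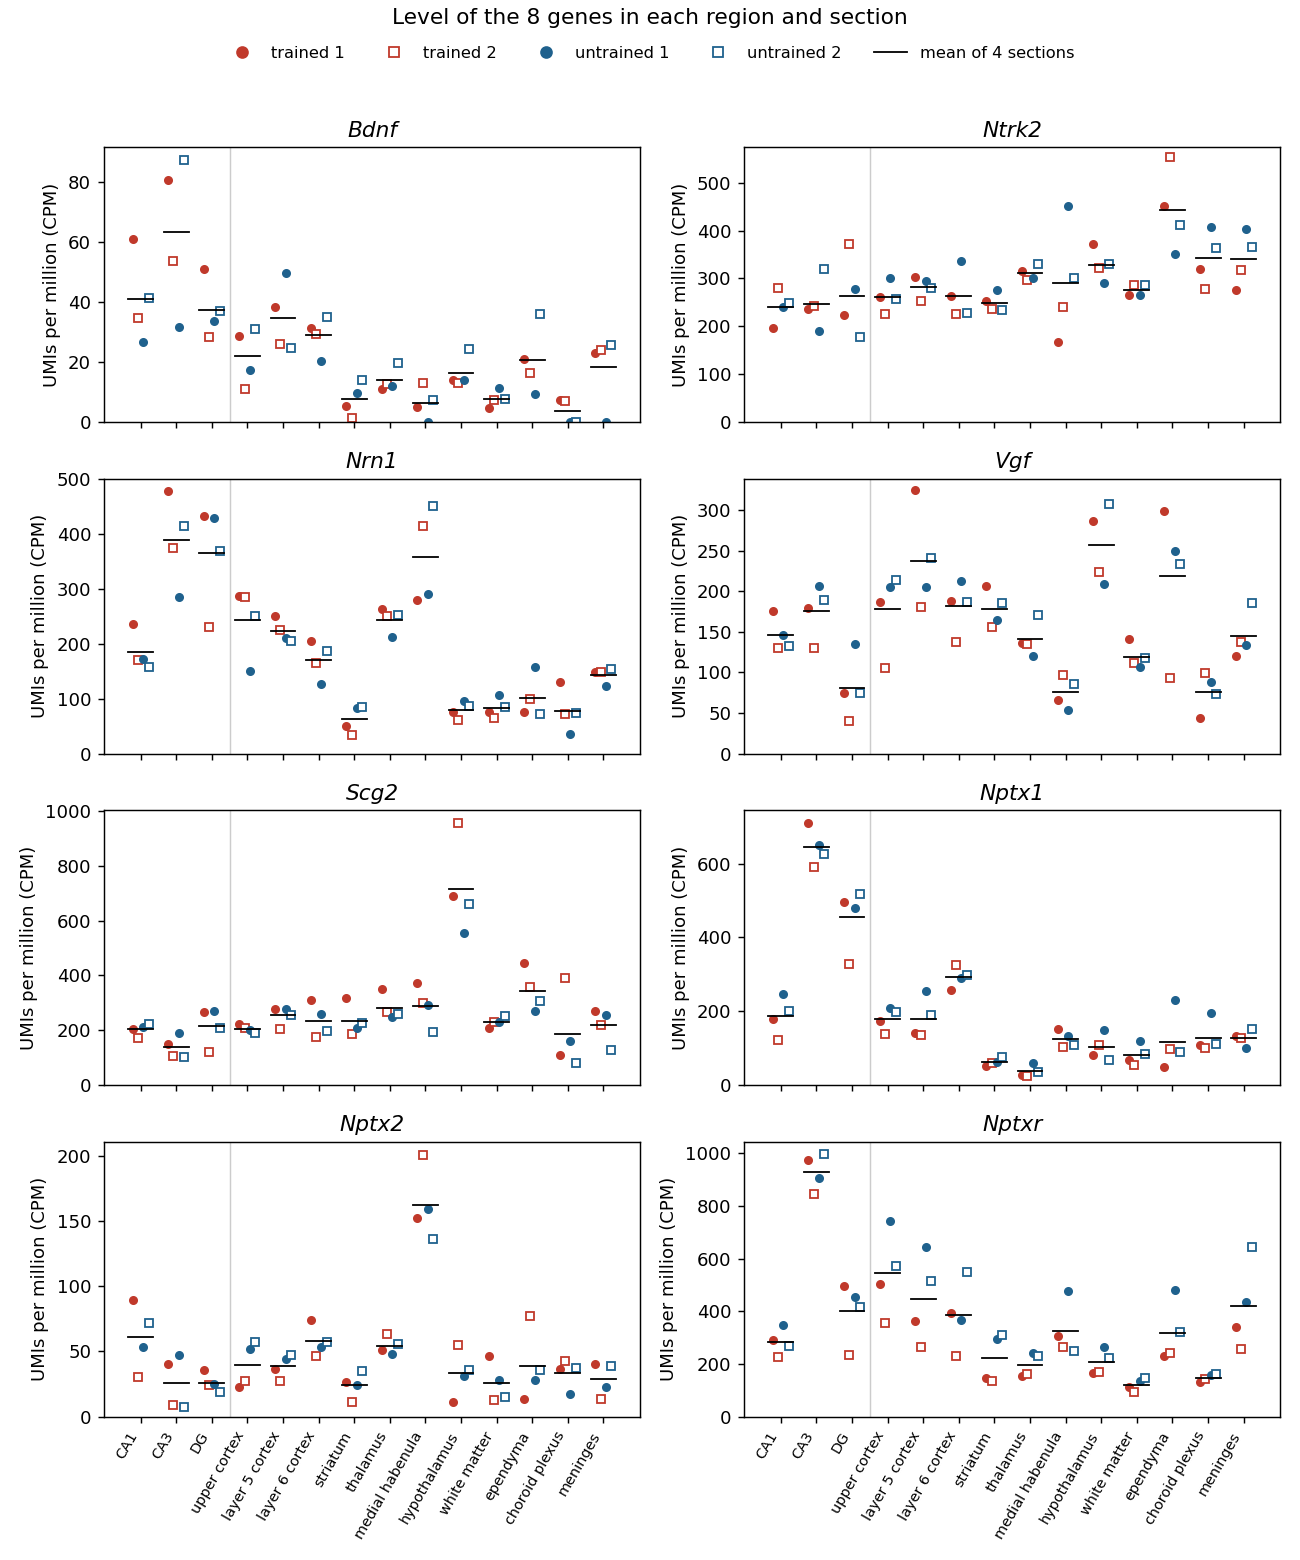
Points give the level of each gene in CPM for every region and section, with filled marks for section 1 and open marks for section 2 of each condition, and bars give the mean of the 4 sections. CA3 leads for Bdnf, Nrn1, Nptx1 and Nptxr, hypothalamus for Scg2 and Vgf, medial habenula for Nptx2 and ependyma for Ntrk2.

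**Figure D3:**
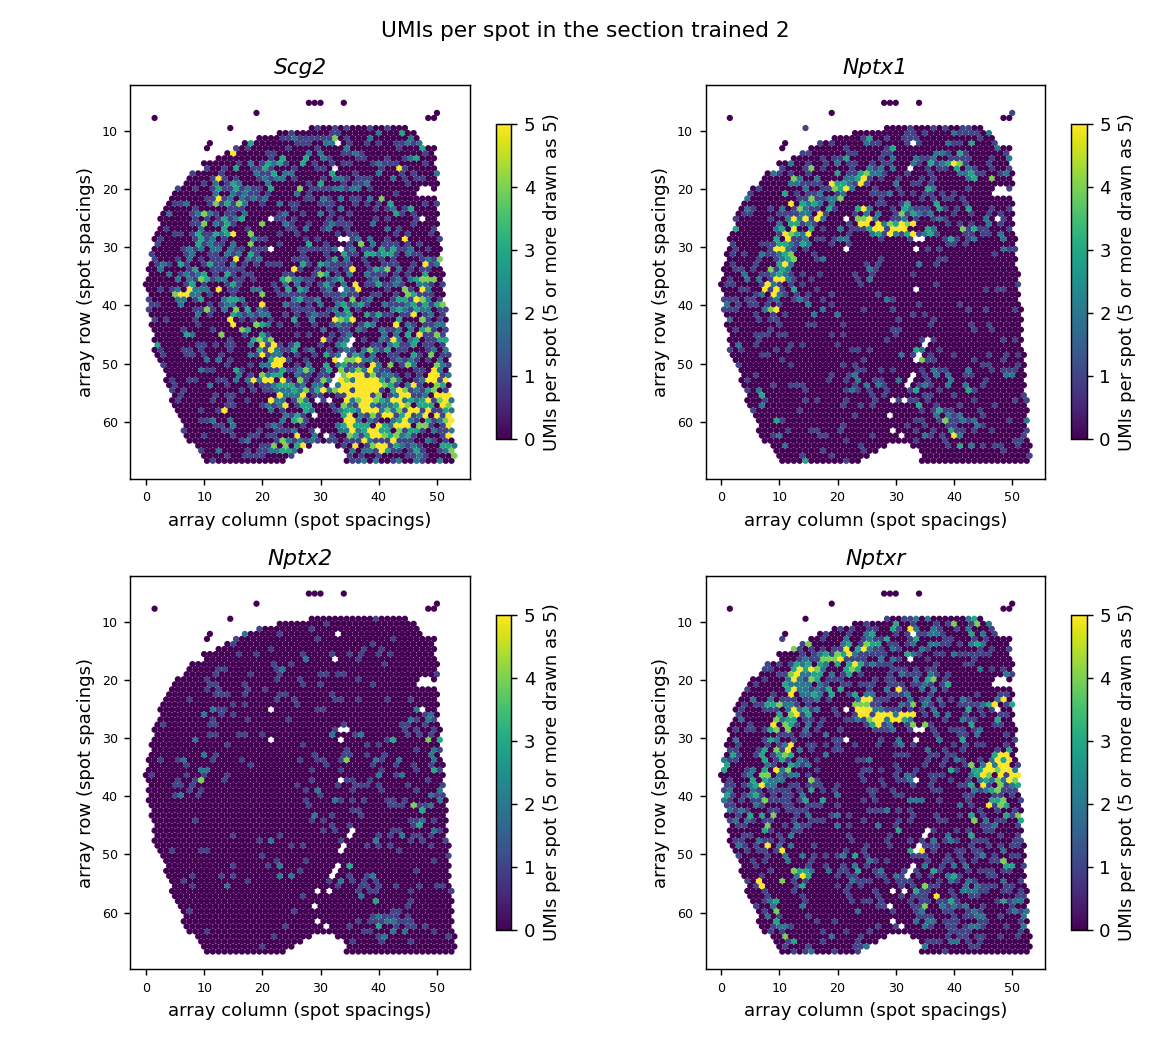
Colour gives the UMIs of 1 gene in each spot of trained 2, drawn up to 5, by array row and column in spot spacings. Scg2 fills the hypothalamus at the lower right, Nptx1 and Nptxr mark CA3 and a cortical band, and Nptx2 is sparse with spots near the medial habenula.

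The share of spots with at least 1 UMI was read in the leading region of 4 members. Nptxr was found in 82.6% of CA3 spots of trained 1 (exact Clopper-Pearson 95% interval 68.6 to 92.2%), 85.0% of trained 2 (70.2 to 94.3%), 18 of the 36 spots of untrained 1 (32.9 to 67.1%) and 68.9% of untrained 2 (53.4 to 81.8%). Scg2 was found in 70.0%, 80.7%, 43.2% and 60.5% of hypothalamic spots, and 1 hypothalamic spot of trained 2 held 47 UMIs of it. The median spot held 1936, 2493, 1048 and 1851 UMIs in the 4 sections, and depth also differed between regions, with a median of 2471 UMIs in CA3 spots and 1242 in ependyma spots of untrained 2. The part of depth in the shares was not tested. Nptx2 was found in 32.1%, 32.3%, 14.7% and 34.1% of medial habenula spots. Bdnf, the sparsest of the 8, was found in 26.1%, 22.5%, 5.56% and 22.2% of CA3 spots and in 1.79%, 3.23%, 0% and 2.27% of medial habenula spots. The 0 of 34 spots of untrained 1 allows a share of up to 10.3%, the exact upper bound.

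The genes whose pattern over the 14 regions was most like that of each member were ranked by Pearson's r of mean log2 levels (CPM plus 1) over 10731 genes with at least 200 UMIs. Regions share libraries, and r is given as a description. For Bdnf these were 2900026A02Rik (0.93), Clstn2 (0.92) and Atp6v1c1 (0.91). For Nrn1 they were Cdk14 (0.91), Atp6v1a (0.88) and Neurod1 (0.87), and for Ntrk2 Rarres2 (0.88), Tm4sf1 (0.83) and Antxr1 (0.82). Rarres2 is a marker that defined ependyma, so its likeness to Ntrk2 was partly built in.

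Vgf was most like Rangap1 (0.93), Usp5 (0.90) and Armcx4 (0.89), and Scg2 most like Peg3 (0.92), Spcs2 (0.92) and Gal (0.91), the last of which is a hypothalamus marker used here. For Nptx1, Smoc2 (0.87) and Olfm1 (0.86) were among the most alike. Nptxr was most like Asph (0.88), Wsb2 (0.87) and Chgb (0.87), and Chgb encodes another granin. Nptx2 was most like Actr10 (0.85), Gabbr1 (0.85) and Gpr151 (0.84), a medial habenula marker used here. Among the 8 themselves r was highest between Nptx1 and Nptxr (0.75) and between Nrn1 and Nptxr (0.71), and was -0.16 between Nptx1 and Nptx2.

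Other genes of the 3 systems were read from fixed lists. The granin and dense-core vesicle list had 15 genes, of which 14 were tested between regions. In hypothalamus 8 of them were above the other regions and 3 below, where 13.4% and 13.9% of all 7830 genes were, and the median log2 difference was 0.41 against -0.02 over all genes tested. Resp18, a dense-core vesicle protein (2.26), and Pcsk1n, an inhibitor of prohormone convertase (0.66), had the smallest p there. In DG none was above and 6 were below, among them Scg5 (-0.79) and Resp18 (-1.45), where 11% of all genes were above and 8.21% below (median -0.35 against 0.0016). The granin gene Chgb was above in CA3 (1.93), where Scg2 was lowest.

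Of the 18 genes on the pentraxin and AMPA receptor partner list, 14 were tested between regions. In upper cortex 9 were above and 2 below, against 12.1% and 7.87% of all genes (median 0.42 against 0.003), with the auxiliary subunit genes Cacng3 (1.02) and Cnih3 (0.94) above and the receptor subunit gene Gria1 (-0.74) below. Gria1 was above in CA1 (1.42), DG (1.37) and CA3 (0.95), and Cnih2 in CA1 (1.62), CA3 (1.17) and DG (0.94). In CA3, where Nptx1 and Nptxr led, 4 genes of the list were above and 1 below, against 8.17% and 4.44% of all genes, with a median of -0.08 against -0.03.

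Of the 30 genes on the neurotrophin signalling list, 21 were tested. In CA3 7 were above and 1 below, against 8.17% and 4.44% of all genes (median -0.05 against -0.03), among those above the kinase gene Map2k1 (1.0) and Sort1 (0.83), whose product sorts BDNF. In DG 6 were above and none below, against 11% and 8.21% of all genes (median 0.25 against 0.0016), and the TrkC receptor gene Ntrk3 was above in both (0.89 in CA3 and 0.87 in DG).

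The second comparison set trained against untrained mice over whole sections, 2 against 2, taken 3 days after the last test. Only the trained mice had the shock on, so learned avoidance and shock exposure cannot be told apart here. By edgeR's quasi-likelihood test none of the 8 genes was called, where 0.0145% of 13810 genes were called, and DESeq2 called none of the 6 members to which it gave an adjusted p, all but Bdnf and Nptx2. At an unadjusted p under 0.05 there were 2 of the 8, Nptx1 and Nptxr, and 7.96% of all genes. Both trained sections lay below both untrained ones for 4 of the 8 genes (12.1% of all genes tested) and above them for 1 (28.8%). The p-values measure the spread between 2 mice a condition, and leaving out trained 1 gave 3 calls, Vgf (-0.49, edgeR adjusted p = 0.0122), Nptx1 and Nptxr, where 5.96% of all genes were then called, while leaving out trained 2 gave 1, Nptxr, with 0.283% of all genes. With a section left out its condition holds 1 mouse, assumed to vary like the other condition, whose 2 sections alone give the gene's own spread. In every fit edgeR also draws the spread of a gene towards that of all genes. In the main fit this carried 8.15 degrees of freedom, against 2 of the gene's own.

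Nptxr stood at 329 and 219 CPM in the trained sections and 477 and 476 in the untrained ones. The untrained sections were nearly equal and above both trained ones. The log2 difference was -0.87 (SE 0.19, edgeR adjusted p = 0.366), and the call depended on the setting. Nptxr was called without a filter on low counts (edgeR adjusted p = 3.54e-08) and with the replicate number as a block (-0.91, edgeR adjusted p = 0.0104). It was also called without trained 1 (-1.26) and without trained 2 (-0.56). In these fits with a section left out, the nearly equal untrained sections are the only pair within a condition. Nptxr was not called in the other 6 of 10 alternatives. The unassigned spots lay mostly at the lateral and lower edge of the sections and held 490 and 300 against 669 and 790 CPM of Nptxr. Of all UMIs they held 18.0% and 12.2% against 28.4% and 23.3%. Without these spots the whole section held 293 and 208 against 401 and 381 CPM, still without overlap (-0.71, edgeR adjusted p = 0.436).

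Nptx1 had 148 and 129 CPM in the trained sections and 191 and 175 in the untrained ones (log2 -0.47, SE 0.13, edgeR adjusted p = 0.536). Scg2 ran the other way, at 322 and 320 against 256 and 256 CPM (0.25, SE 0.11, edgeR adjusted p = 0.620). In both genes the conditions did not overlap, but the adjusted p missed the threshold. For Scg2 the spread within a condition was small beside the gap, and for Nptx1 it was close to the gap in size. Thalamus, the lowest region for Nptx1, held 14.0% and 20.0% of UMIs in the trained sections and 11.7% and 11.5% in the untrained ones. The part of this in the whole-section values was not tested. With 1 section left out the difference of Nptx1 ran from -0.64, without trained 1, to -0.32.

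Nptx2 had 44.5 and 41.7 against 46.6 and 46.2 CPM, and Ntrk2 281.0 and 281.1 against 302 and 282. Neither overlapped, and the log2 differences were -0.18 and -0.13. Without the unassigned spots, Nptx2 overlapped, at 44.2 and 41.8 against 41.6 and 46.0 CPM. Bdnf overlapped, with 23.3 and 16.6 against 19.1 and 26.6 CPM. So did Nrn1, with 207 and 166 against 174 and 203, and Vgf, with 194 and 150 against 183 and 200. For these 3 genes the log2 differences were -0.31, -0.09 and -0.23, and intervals of 2 SE reached from -0.78 to 0.15, from -0.39 to 0.21 and from -0.54 to 0.08. These values moved with 1 section left out. Without trained 1 they were -0.63, -0.32 and -0.49, and without trained 2 they were -0.030, 0.10 and -0.014. Bdnf was near 0 without untrained 2 too.

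In the hippocampus, the region the study is about, none of the 8 genes was called by edgeR or DESeq2, none had an unadjusted p under 0.05, and none of all 8899 genes tested was called by edgeR (0%), where 449 (5.05%) had an unadjusted p under 0.05. The conditions overlapped for all 8, while both trained sections lay below both untrained ones for 16.4% of all genes and above them for 18.5%. Bdnf had 62.3 and 37.8 CPM in the trained sections and 30.1 and 49.1 in the untrained ones (log2 0.21, interval of 2 SE from -0.43 to 0.86, edgeR adjusted p = 0.973). Nptxr had 532 and 382 against 491 and 476 (-0.09, interval from -0.43 to 0.24), and Scg2 214 and 142 against 229 and 192 (-0.24, interval from -0.65 to 0.16). The highest and the lowest value of Nptxr were both those of trained mice.

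Among the other members of the hippocampus, Nptx1 had 423 and 295 against 407 and 415 CPM (-0.21), Nrn1 367 and 238 against 286 and 296 (0.03) and Vgf 140 and 105 against 154 and 120 (-0.14). Ntrk2 had 217 and 295 against 244 and 235 (0.11), and Nptx2 58.0 and 23.3 against 42.2 and 37.2 (0.003). Of the 8, 7 were highest or lowest in trained 2 and 6 in trained 1. The astrocyte marker list was highest in trained 2, at 2132 and 3208 against 2229 and 1977 CPM. The interneuron list (1167 and 1519 against 919 and 1024) and the blood list (708 and 621 against 467 and 436) were higher in both trained sections, while the microglia and endothelium lists overlapped. The part of these cell types in the member values was not tested.

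**Figure D4:**
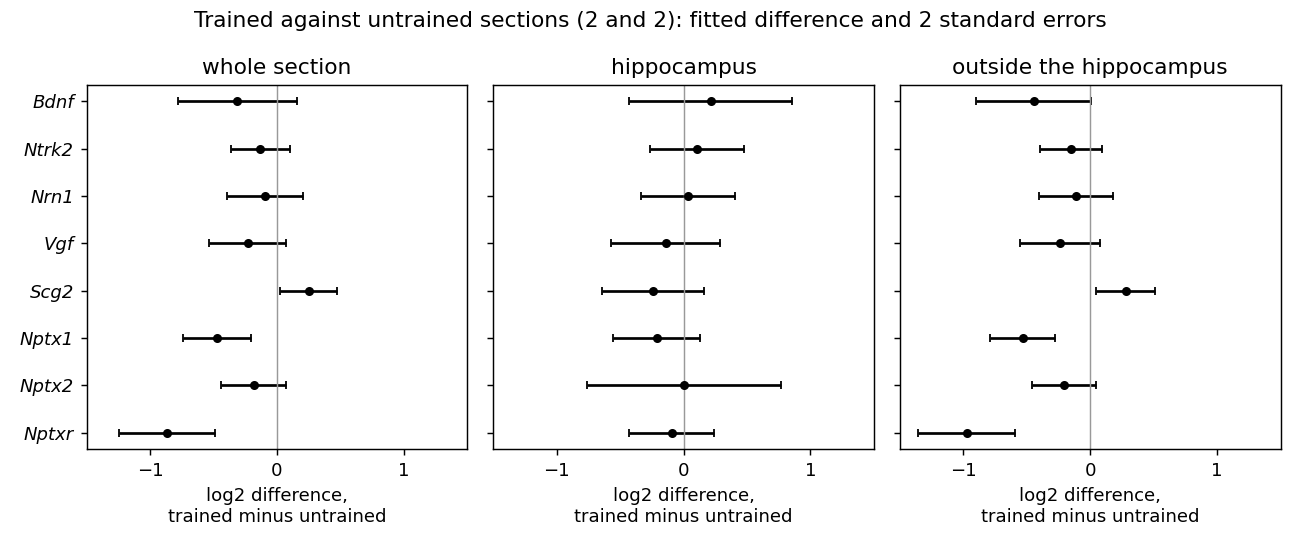
Points give the fitted log2 difference, trained minus untrained, of each gene over the whole section, the hippocampus and all spots outside it, with bars of 2 standard errors. In the hippocampus the bars of all 8 genes cross 0, and over the whole section and outside the hippocampus those of Nptx1 and Nptxr lie below 0 and those of Scg2 above 0.

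Within the hippocampus, a training difference in CA1, CA3 or DG was tested against that in the other 2 regions. None of the 24 differences of the members passed edgeR's test, at 0%, 0% and 0.0158% of 6344 genes for CA1, CA3 and DG. The largest were 0.70 for Ntrk2 in DG (SE 0.28, unadjusted p = 0.0151, edgeR adjusted p = 0.997) and 0.67 for Vgf in CA1 (SE 0.35, unadjusted p = 0.0615).

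The third comparison took each region in turn. Of the 8 genes, 6 to 8 passed the filter on low counts in each of the 14 regions, and of the 99 pairs tested 1 was called, where 0.0809% of all gene and region pairs were called. The pair was Nptxr in striatum, with 146 and 136 CPM in the trained sections and 296 and 310 in the untrained ones. The values of a condition lay close together and the conditions far apart. The log2 difference was -1.14 (SE 0.20, edgeR adjusted p = 0.0033), a level 2.21-fold higher in the untrained sections, and 0.337% of the genes tested in striatum were called.

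Several values in the striatum moved with this one. The striatum marker list stood at 2432 and 3556 against 1643 and 2021 CPM, and the CA1 list at 301 and 223 against 344 and 326. The microglia list (294 and 309 against 271 and 246) and the endothelium list (197 and 216 against 189 and 192) lay higher in both trained sections, and the astrocyte, interneuron and blood lists overlapped. A single spot of untrained 2 held 23 of the UMIs, whereas no spot of the trained sections held more than 4. The part of these values in the difference was not tested. When spots had to reach a higher marker score to count as striatum the difference was -0.82 (edgeR adjusted p = 0.107), and without untrained 1 it was -1.17 (edgeR adjusted p = 0.960).

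Nrn1 in striatum had 49.3 and 33.4 against 82.4 and 84.5 CPM (-1.09, SE 0.32, edgeR adjusted p = 0.193). Bdnf in striatum had 5.29 and 1.15 against 9.69 and 14.1 CPM from 12 UMIs in all and did not pass the filter. Scg2 overlapped there, at 319 and 185 against 208 and 225 CPM.

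Outside the hippocampus Nptxr was lower in trained mice in region after region. Both trained sections lay below both untrained ones in 9 of the 11 other regions, where 0.287% of 2091 genes measured in all of them reached 9, and in none of CA1, CA3 and DG. The regions come from the same 4 sections and are not independent. In layer 5 cortex it had 363 and 264 against 643 and 516 CPM (-0.96, edgeR adjusted p = 0.104), in thalamus 156 and 162 against 241 and 230 (-0.62, edgeR adjusted p = 0.111), and in hypothalamus 166 and 169 against 265 and 223 (-0.60, edgeR adjusted p = 0.50), a region whose marker list was uneven between sections. The exceptions were layer 6 cortex, with 394 and 229 against 368 and 549, and medial habenula, with 305 and 265 against 477 and 251.

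Meninges gave a log2 difference of -1.09 for Nptxr (edgeR adjusted p = 0.0505), with 339 and 259 against 437 and 645 CPM. It was called in 5 of 11 alternatives, without a filter on low counts (-1.0, edgeR adjusted p = 0.0302), without mitochondrial genes, Bc1, Ttr and Gm42418 (-1.09, adjusted p = 0.0321), with the replicate block (-1.07, adjusted p = 0.00106), without trained 1 (-1.29, adjusted p = 0.00122) and without untrained 1 (-1.29, adjusted p = 0.00105). Without untrained 2 it was -0.73 (adjusted p = 0.754). Layer 5 cortex was called without the filter (-0.92, edgeR adjusted p = 0.0337), without trained 1 (-1.26, adjusted p = 8.62e-04) and without untrained 2 (-1.12, adjusted p = 0.0436), and layer 6 cortex (-0.66) with the replicate block (-0.71, adjusted p = 0.0365) and without trained 1 (-1.18, adjusted p = 1.82e-04).

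Upper cortex had 505 and 355 against 743 and 572 (-0.69), ependyma 229 and 242 against 482 and 323 (-0.87), white matter 111 and 95.2 against 135 and 145 (-0.54), and choroid plexus, likewise with an uneven list, 131 and 142 against 159 and 160 (-0.27). Upper cortex was called without trained 1 (-1.06, edgeR adjusted p = 5.38e-04) and without untrained 2 (-0.90, adjusted p = 0.0463), and was -0.40 without trained 2. With 1 section left out, ependyma ran from -1.06 to -0.50, the latter without untrained 1, white matter from -0.67 to -0.35, the latter without trained 2, choroid plexus from -0.40 to -0.18, layer 5 cortex from -1.26 to -0.67 and layer 6 cortex from -1.18 to -0.25, the latter without trained 2. Leaving out trained 1 raised the number of member and region pairs called from 1 to 9 of 100, and that of all gene and region pairs to 0.859%. Leaving out untrained 2 raised them to 3 of 102 and to 0.213%.

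**Figure D5:**
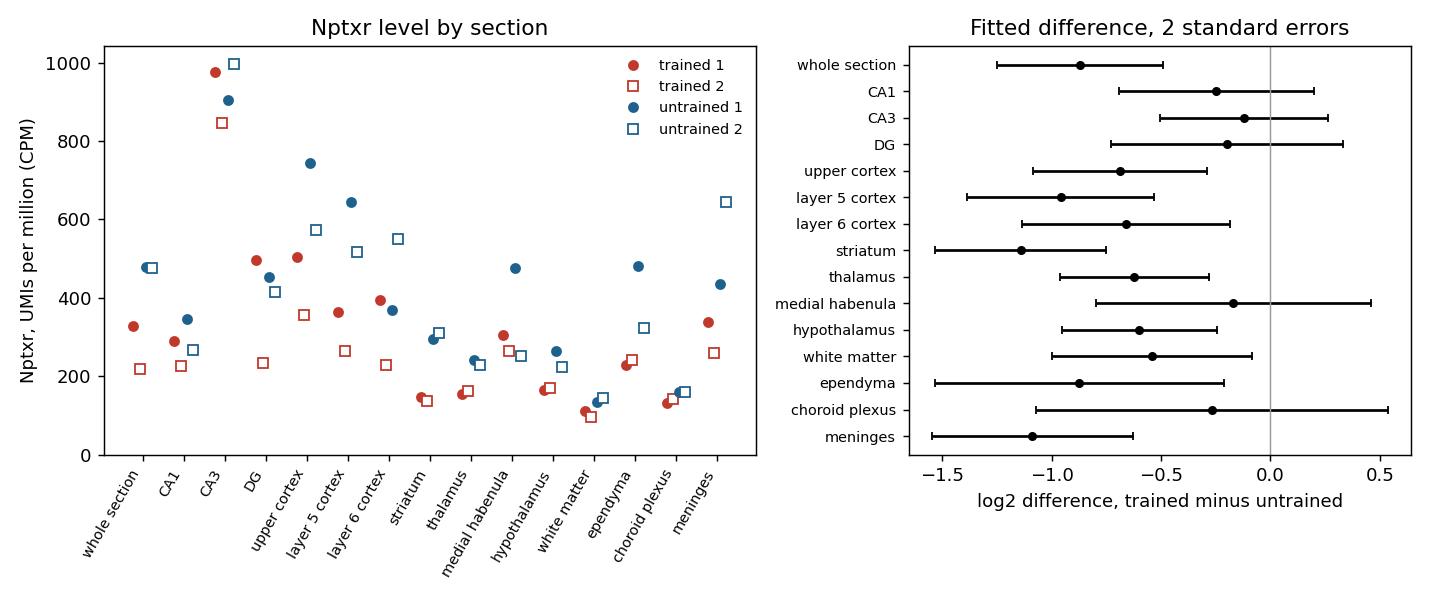
The left panel gives the level of Nptxr in CPM for each region and section, and the right panel the fitted log2 difference, trained minus untrained, with bars of 2 standard errors. The marks of trained sections lie below those of untrained ones in 9 of 11 regions outside the hippocampus and overlap them in CA1, CA3 and DG.

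A test of the difference itself was added after these values were seen. The training difference of Nptxr in the hippocampus exceeded that in the rest of the section by 0.91 on the log2 scale (SE 0.14, edgeR adjusted p = 0.0465). Nptxr was the only one of 12150 genes called in this test (0.00823%), and 631 had an unadjusted p under 0.05. Without untrained 1 or untrained 2 the adjusted p was 0.729 or 0.933, and leaving out trained 1 gave 2 calls among the members, where 0.744% of all genes were called. Without the unassigned spots, also tried after seeing the data, the difference was 0.73 (edgeR adjusted p = 0.162), and the call was lost. Over all spots outside the hippocampus taken alone, Nptxr had 306 and 204 against 476 and 476 CPM, a log2 difference of -0.97 (SE 0.19, edgeR adjusted p = 0.201). Without the unassigned spots these levels were 261 and 189 against 388 and 366 CPM (-0.82, edgeR adjusted p = 0.350). In the main fit no member was called by edgeR outside the hippocampus, where 0.0147% of 13640 genes were. There 3 members, Scg2, Nptx1 and Nptxr, had an unadjusted p under 0.05, as 8.39% of all genes did. Without a filter on low counts Nptxr (-0.96, edgeR adjusted p = 8.22e-10) and Nptx1 (-0.52, adjusted p = 0.0206) were called, with 1.1% of all genes. With the replicate block Nptxr was called (-1.02, edgeR adjusted p = 0.00396), with 0.572% of all genes.

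Other members had fewer such regions. Nptx1 lay below in 6 of the 11 regions outside the hippocampus, where 3.35% of genes reached 6, and its log2 difference was -0.74 in layer 5 cortex (141 and 134 against 255 and 190 CPM) and -0.92 in thalamus (28.1 and 23.3 against 60.1 and 35.7). In CA1 it had 179 and 123 against 247 and 200 CPM (-0.57, edgeR adjusted p = 0.850). Scg2 lay above in 5 of the 11 regions, hypothalamus among them, as 19.2% of genes did in at least 5, and below in 1. Nptx2 in upper cortex had 22.9 and 27.2 against 52.0 and 57.0 CPM (-1.24, SE 0.33, edgeR adjusted p = 0.377). None of these passed the test, and Bdnf passed the filter on low counts in only 6 of the 14 regions.

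The share of positive spots was compared after each spot was thinned to 500 UMIs, which left out 264, 226, 538 and 236 shallower spots. Over whole sections Nptxr was then found in 13.4% and 10.9% of spots of the trained sections and 16.6% and 16.7% of the untrained ones, and Scg2 in 14.4% and 15.1% against 12.2% and 10.1%. Before thinning these shares were 38.6% and 38.5% against 33.8% and 44.9% for Nptxr and 42.4% and 47.0% against 25.8% and 36.4% for Scg2. The thinned shares of Bdnf, Nptx1 and Nptx2 also lay lower in both trained sections, as those of 12.3% of all genes did, and Scg2 was the only member higher, with 24.3% of genes. Before thinning 5 members were higher in both trained sections, as were 58.8% of all genes, and the trained sections are the deeper ones by median UMIs per spot.

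In the hippocampus the thinned share of Bdnf was 2.25% and 1.88% in the trained sections and 1.16% and 0% in the untrained ones (0 of 209 spots, which allows up to 1.75%), from 5, 4, 2 and 0 positive spots, and that of Nptxr was 23.0% and 20.2% against 17.9% and 17.2%. Both lay higher in the trained sections, as did 16.7% of all genes, and no member lay lower, where 16.5% of genes did. Before thinning, 5 members were higher, where 45.6% of genes were. With 2 sections against 2, the two-sided exact permutation test cannot go below p = 0.33, which is the value for each share that did not overlap.

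In the pathway lists too, over whole sections edgeR called none of the genes on the 3 lists, nor did DESeq2 call any of the 31 to which it gave an adjusted p, and the median log2 differences were -0.14 for neurotrophin signalling, -0.003 for granins and dense-core vesicles and -0.20 for pentraxin and AMPA receptor partners, against 0.01 over all genes tested. Among the neurotrophin genes with the smallest p was Mapk3 (159 and 149 against 187 and 213 CPM, -0.45, edgeR adjusted p = 0.526). Among AMPA receptor partners they were Cnih3 (43.8 and 47.4 against 57.6 and 58.3, -0.42, edgeR adjusted p = 0.502) and the synaptic organiser gene Cbln1 (32.9 and 54.8 against 28.1 and 21.6, 0.77, edgeR adjusted p = 0.536). In the hippocampus the medians were -0.06, 0.05 and -0.09 against 0.002 over all genes, and none was called. Leaving out trained 1 gave 9 calls over whole sections, where 5.96% of all genes were called, and 1 in the hippocampus, where 1.47% were.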

How the data were processed

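For each section the authors deposited raw UMI counts per gene and spot, with spot positions. The matrix headers name Space Ranger 1.2.2, and the study's methods name a later Space Ranger version with the mm10 genome. The submitters' processing notes list Cell Ranger 8, STAR and mm39. The version and build behind the counts are therefore not settled, and coordinates are those of GRCm38 (GENCODE vM21). Spots over tissue, 10940 in all, were kept. Marker lists were scored per spot and averaged over neighbouring spots, and a spot joined the leading of 14 lists at a score of at least 0.5. Of the spots led by CA1, CA3 or DG lists only the largest contiguous block was kept, and likewise for medial habenula. The others became unassigned, as did spots below that score, and unassigned spots count as outside the hippocampus. The members and all lists were chosen with earlier results of these data known. The comparisons "outside the hippocampus" and the hippocampus minus the rest were added after seeing the values, as was leaving out unassigned spots. Counts were summed per section and region, since spots of a section are not replicates, and tested with edgeR 4.0.16 (quasi-likelihood, TMM, filterByExpr, Benjamini-Hochberg, 0.05) in R 4.3.3, after a check on simulated data. Named genes were the 8 members, their 3 most alike genes and up to 4 genes of a list with the smallest p. Some genes that this rule names are not reported here. Alternatives were DESeq2 1.42.0, no filter, library sizes without mitochondrial genes, Bc1, Ttr and Gm42418, thinned sums, a replicate block, each section left out, other region scoring, and for positive spots thinning or at least 2 UMIs. Sections with the same number did not deviate together (correlation 0.0294 over the whole section and 0.0131 in the hippocampus), so the numbers did not pair them. Depth was 3560294 to 10330015 UMIs a section. Markers were not weighed for doublets, since a spot holds several cells.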

Additional observations from a re-analysis of the deposited data

Results flagged for a closer look

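The training difference of Nptxr, the membrane-bound pentraxin, differed between the hippocampus and the rest of the section by 0.91 on the log2 scale (SE 0.14, edgeR adjusted p = 0.0465). It drew attention because the same contrast gave different values in 2 parts of the same sections, and this was tested by an interaction term added after the values were seen. In the hippocampus both untrained sections lay between the trained ones, and outside it both trained sections lay below both untrained ones. The call was lost without untrained 1 (0.94) and without untrained 2 (0.87). It was also lost without the unassigned spots (0.73, edgeR adjusted p = 0.162), an alternative chosen after seeing the data.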

How the results depend on the processing

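Having 2 mice a condition limits every trained against untrained value, and depth limits Bdnf and Nptx2 in small regions. The members called over whole sections rose from 0 to 1 without a filter on low counts (1.05% of all genes called, against 0.0145%) and to 1 with the replicate block (0.34%), and ran from 0 to 3 with 1 section left out. DESeq2 gave no adjusted p for Bdnf and Nptx2 there. Outside the hippocampus they rose from 0 to 2 without the filter (1.1% of all genes, against 0.0147%) and to 1 with the block (0.572%). The count there also changed with 1 section left out, where the value of Nptxr ran from -1.38 to -0.66. Of the member and region pairs, 1 became 3 without the filter, 2 without mitochondrial genes, Bc1, Ttr and Gm42418, 0 with thinned sums, 4 with the replicate block and 0 with the higher region score, where 0.0943%, 0.0866%, 0.0725%, 0.256% and 0.0526% of all pairs were called against 0.0809%, and ran from 1 to 9 with 1 section left out. For Nptxr in striatum thinned sums gave -1.16 (edgeR adjusted p = 0.0804) and the higher score -0.82 (adjusted p = 0.107), and leaving out a section gave -1.27 to -0.98. For the hippocampus minus the rest, the members called changed with 1 section left out, and the value of Nptxr ran from 0.76 to 1.05. Without the unassigned spots no member was called, and the value of Nptxr was 0.73 (edgeR adjusted p = 0.162). Pathway genes called over whole sections rose from 0 to 1 without the filter and ran from 0 to 9 with 1 section left out, and those in the hippocampus ran from 0 to 1. Members whose share of positive spots did not overlap fell from 5 to 1 at 2 UMIs over whole sections, and in the hippocampus from 5 to 2 after thinning and to 3 at 2 UMIs. The cause of these changes was not tested. Between regions the count of calls, 48, stayed between 40 and 56, but not all pairs were the same: 28 of the 48 held under all 10 alternatives, and the losses were 10 without averaging over neighbouring spots, 8 without the section block, 4 with DESeq2, 3 with the higher score and 2 to 8 with 1 section left out. Over whole sections the value of Nptxr ran from -1.26 to -0.56 with 1 section left out, that of Bdnf from -0.63 to -0.030, Vgf from -0.49 to -0.014, Nptx2 from -0.29 to -0.084 and Ntrk2 from -0.19 to -0.077.

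Several values that were not called changed sign. In the hippocampus these were Ntrk2 without averaging over neighbouring spots (-0.062), Nrn1 with the replicate block (-0.0098), Vgf with thinned sums (0.0042) and Nptx2 without mitochondrial and the other named genes (-0.0026), with thinned sums (-0.29), with the replicate block (-0.12) and without averaging (-0.11). Nptxr changed sign in CA3 with thinned sums (0.091) and without averaging (0.067) and in medial habenula with the higher score (0.095). A called value also turned, that of Vgf in choroid plexus against the other regions, from -0.86 to 0.21 without averaging. With 1 section left out, the hippocampal differences ran from -0.15 to 0.66 for Bdnf, -0.17 to 0.33 for Ntrk2, -0.28 to 0.30 for Nrn1, -0.37 to 0.047 for Vgf, -0.52 to 0.023 for Scg2, -0.46 to 0.0099 for Nptx1, -0.71 to 0.55 for Nptx2 and -0.32 to 0.11 for Nptxr. Nrn1 ran from -0.32 to 0.10 over whole sections and from -0.31 to 0.062 outside the hippocampus, and Nptxr from -0.18 to 0.0047 in CA3, -0.72 to 0.17 in DG and -0.73 to 0.12 in medial habenula.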
